A study of Pinus pinaster with 24 samples.

Results

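In 4-month-old maritime pine (Pinus pinaster) seedlings, 150 of the 67271 transcript features in the deposited table stood furthest above every other organ in needles while moving little there after a sulfate pulse. They were chosen from the measured values. Each level was taken as log2(value + 0.5), and the 3 control libraries of each organ were averaged. Of the features whose needle sulfate and control means differed by less than 0.5 on that scale, 63933 in all, the 150 with the largest distance between the needle mean and the highest mean among cotyledons, stem and roots were kept. That distance is called the needle lead here. The control levels of all 4 organs and the needle sulfate levels therefore chose the members. Contrasts within these levels are given as descriptions with no test. The sulfate libraries of cotyledons, stem and roots had no part in the choice. Tests of sulfate against control in those organs take their control side from values that the rule used.

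Needles are the lasting photosynthetic leaves of a pine, while cotyledons are the seed leaves that open first and serve the young seedling. Both are green leaf organs, and a transcript can be restricted to one of them. Transcripts restricted to an organ are commonly used as markers of its identity. The sources used here give no gene names for the identifiers, which are written PpCO2 and a number, so no function is given for any member.

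The study asked how sulfur-starved seedlings of the provenance Segura-Alcaraz respond to sulfate. All groups shared a weekly feed of 0.3 mM KNO3, which supplies no sulfur, for 3 months from 1 month after germination. The sulfate groups then received 0.5 mM K2SO4, and the control groups received 1 mM KCl. Needles, cotyledons, stem and roots of both treatments were collected 24 h later, 3 libraries for each of the 8 groups. Each library was made from a pool of 13 to 14 seedlings, and the labels call the pools biological replicates.

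Values are deposited as CPM, but the columns do not sum to what plain CPM gives. They are therefore taken as CPM on scaled library sizes. They are called normalized CPM below, and they are not divided by transcript length. Totals ran from 97443848 to 134863358 reads in needles, from 97066476 to 195881948 in cotyledons, from 95097766 to 100891286 in stem and from 92664463 to 104403811 in roots. The scaling factors were inferred from the column sums. They were alike within an organ but lay between 0.877 and 1.22 over all libraries, so levels compared between organs rest on that scaling. A level of 3 reads corresponded to 0.0165 to 0.0351 normalized CPM. Spearman correlations over all features were 0.955 to 0.990 between libraries of the same organ and 0.527 to 0.906 between libraries of different organs, so each library resembled the others with its organ label. The tissue was not checked by marker genes, since names are not paired with identifiers. In whole organs, fewer cells of a type and less RNA per cell cannot be told apart.

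The members were well expressed in needles, and in sulfate libraries 128 of the 150 had a mean under 1 normalized CPM in each of the other organs. Their needle means ran from 5.68 to 339 normalized CPM in sulfate libraries, with a median of 16.98, and from 6.04 to 325 normalized CPM in control libraries, with a median of 19.7. The needle lead in control libraries ran from 3.71 to 9.22 on the log2 scale, with a median of 4.48. Computed in the sulfate libraries instead, the lead ran from 3.53 to 9.18 with a median of 4.48, and for 142 of 150 members it lay within 0.5 of the control lead. In all 150 members the lowest of the 3 needle sulfate values exceeded the highest of the 9 sulfate values of the other organs. That pattern was found in 4575 of all features, or 6.80%. The needle values of the sulfate seedlings are tied to the rule by its bound, so the count is a description.

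**Figure D1:**
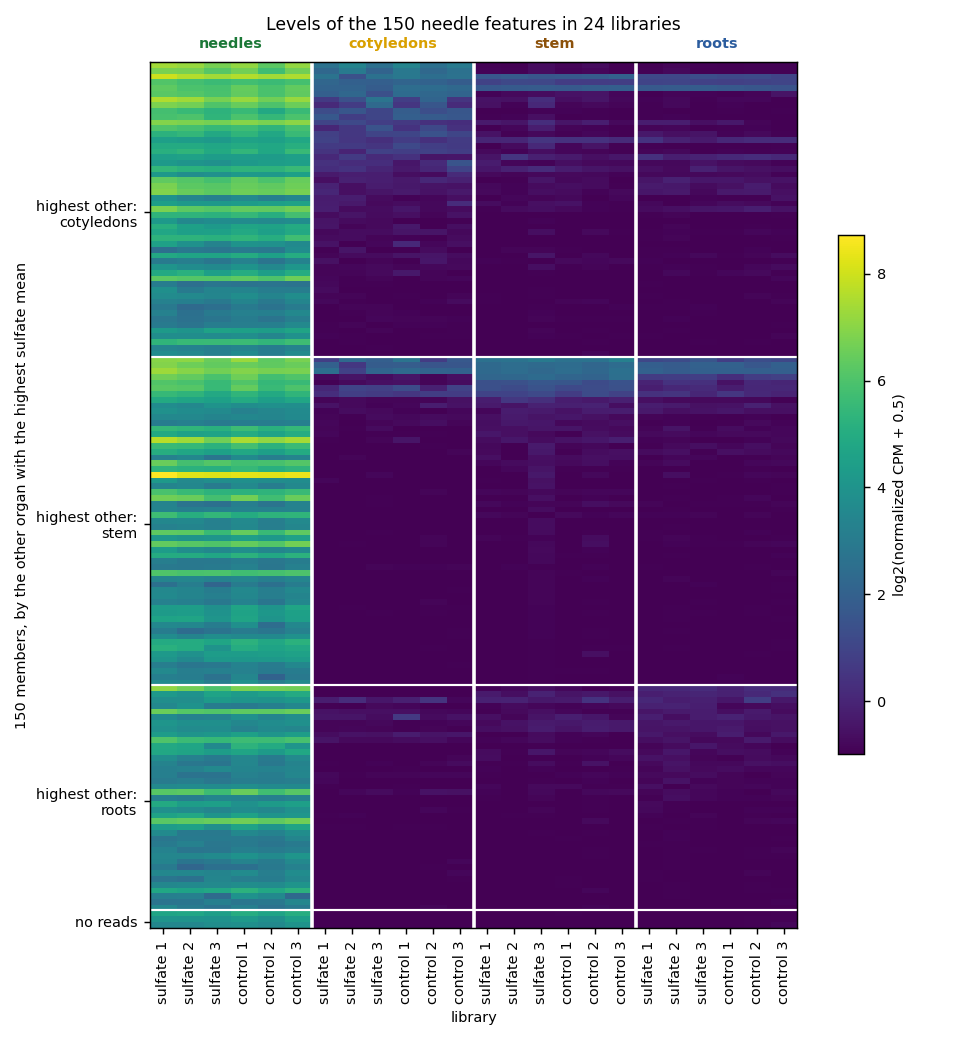
Level of each of the 150 members (rows) in each of the 24 libraries (columns, grouped by organ with sulfate libraries left of control libraries), as log2(normalized CPM + 0.5) by colour. Rows are grouped by the other organ with the highest sulfate mean, and the 6 needle columns are bright in every row while most cells of the other organs sit at the floor of the scale.

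Together the members took up a small and similar share of the needle reads under both treatments. The rule bounds the needle difference of each member, so the likeness follows in part from the choice and is a description. Their summed level was 6042, 5184 and 4382 normalized CPM in the needle sulfate libraries, against 5618, 4465 and 5672 normalized CPM in the needle control libraries. The means were 5203 ± 830 and 5251 ± 682 normalized CPM (SD, n = 3 each), and the ranges overlapped. As shares of all reads these were 0.530%, 0.469% and 0.431% in sulfate needles and 0.505%, 0.437% and 0.531% in control needles. In cotyledons the same sum was 62.1 ± 2.29 normalized CPM in sulfate libraries and 69.1 ± 8.47 in control libraries. In stem it was 43.3 ± 7.08 normalized CPM in sulfate libraries and 41.6 ± 2.33 in control libraries. In roots it was 27.4 ± 0.396 normalized CPM in sulfate libraries and 25.2 ± 1.40 in control libraries.

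PpCO2_162176 had the largest needle lead, 9.22, and also the highest needle level. It measured 421, 300 and 296 normalized CPM in the needle sulfate libraries, against 316, 314 and 346 normalized CPM in the needle control libraries. The sulfate values enclosed the control values. In the other organs its largest counts were 29 reads in stem sulfate 3 and 16 reads in roots sulfate 2. It had 0 reads in all 3 cotyledon control libraries, which places needle control libraries at least 12024-fold higher than a level of 3 reads per library. PpCO2_67502 came next with a lead of 7.70. Its needle values were 206, 162 and 98.3 normalized CPM with sulfate, against 179, 138 and 168 normalized CPM in controls. Sulfate 3 was the lowest of these 6 needle values and sulfate 1 the highest. Stem was its highest other organ, at 0.117, 0.247 and 0.120 normalized CPM in sulfate libraries, against 0.193, 0.258 and 0.385 normalized CPM in control libraries.

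PpCO2_40043, the third in order with a lead of 7.42, had no read in any of the 6 cotyledon libraries or in the 3 stem sulfate libraries. Its needle values were 74.1, 81.6 and 87.5 normalized CPM in sulfate libraries, against 96.5, 81.2 and 96.4 normalized CPM in control libraries, and the 2 groups overlapped. Set against a level of 3 reads per library, needles were at least 2535-fold higher than cotyledons with sulfate, and at least 3377-fold higher in controls. PpCO2_75965 followed with a lead of 7.28 and needle means of 74.2 ± 8.66 normalized CPM with sulfate and 85.0 ± 15.4 normalized CPM in controls. PpCO2_1536, with a lead of 7.19, had needle means of 71.4 ± 4.39 and 79.3 ± 15.8 normalized CPM in sulfate and control libraries and 0 reads in all 6 stem libraries. All 3 were thus high in needles under both treatments and at a trace or at 0 elsewhere.

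PpCO2_108358 and PpCO2_108356 had leads of 7.22 and 7.08 and neighbouring numbers. PpCO2_108358 measured 96.8, 91.0 and 56.4 normalized CPM in needles with sulfate, against 99.6, 53.4 and 88.9 normalized CPM in controls. PpCO2_108356 measured 78.6, 76.5 and 46.3 normalized CPM with sulfate, against 85.5, 47.9 and 79.3 normalized CPM in controls. In both features 4 needle libraries were high, and sulfate 3 and control 2 were low. The last 3 of the 10 largest leads belonged to PpCO2_70650, PpCO2_70656 and PpCO2_70651, at 6.98, 6.93 and 6.92. These 3 were seen at low levels in all 3 other organs. PpCO2_70650, for example, had needle means of 93.2 ± 20.8 normalized CPM with sulfate and 96.1 ± 9.06 in controls, while its cotyledon means were 0.303 ± 0.193 with sulfate and 0.267 ± 0.0705 in controls.

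**Figure D2:**
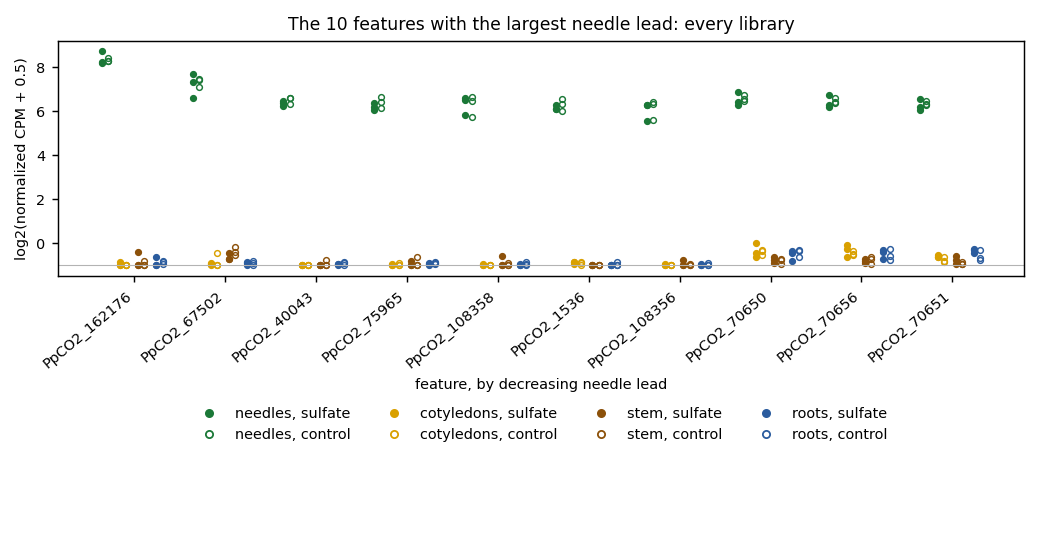
Every library of the 10 members with the largest needle lead, as log2(normalized CPM + 0.5) on the vertical axis, with sulfate libraries as filled points left of control libraries as open points in each organ and a grey line at the value of 0 reads. The needle points stand far above all others in every feature, and PpCO2_70650, PpCO2_70656 and PpCO2_70651 lie slightly off the line in cotyledons and roots.

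The 5 highest needle means in sulfate libraries were those of PpCO2_162176 (339 normalized CPM), PpCO2_144813 (203), PpCO2_67502 (155), PpCO2_160799 (152) and PpCO2_160798 (139). They made up 17.4 to 20.4% of the members' summed level across the 6 needle libraries. PpCO2_144813 measured 255, 191 and 163 normalized CPM in sulfate needles, against 195, 163 and 183 normalized CPM in control needles. Its cotyledon values were 6.09, 2.18 and 5.61 normalized CPM with sulfate, against 6.94, 5.20 and 5.76 in controls. Its means were 2.71 normalized CPM with sulfate and 3.10 in controls in stem, and 1.72 and 1.67 in roots. It was thus high in needles and readily seen in every other organ, with cotyledon sulfate 2 below the other 5 cotyledon libraries.

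At the lower edge of the choice, PpCO2_45906 was the last member, with a lead of 3.71. Its needle values were 8.02, 5.42 and 6.41 normalized CPM in sulfate libraries, against 5.94, 6.13 and 6.06 normalized CPM in control libraries. PpCO2_19544, just outside with a lead of 3.70, had needle means of 5.33 normalized CPM with sulfate and 6.95 in controls. Of the features that ranked high enough by lead, 2 were left out by the bound on the needle sulfate difference. PpCO2_158346, with a lead of 3.72, had a difference of -0.52, just past it. PpCO2_172882, with a lead of 4.28, measured 40.1, 0.220 and 23.9 normalized CPM in sulfate needles, against 11.6, 34.5 and 60.3 normalized CPM in control needles. Its low value was that of sulfate 2 alone. The member closest to the bound was PpCO2_68878, at 5.29, 6.97 and 6.62 normalized CPM with sulfate and 7.62, 6.96 and 12.6 normalized CPM in controls, a difference of -0.46.

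Sulfate minus control in needles, which the rule limited, ran from -0.46 to 0.38 on the log2 scale. The median was -0.09, with 100 members below 0 and 50 above. Over the 27902 features whose needle level lay in the members' range, the median was 0.03. The needle groups did not overlap in 2 members that were higher with sulfate and in 6 that were lower. Over the 58847 features that reached 1 in 3 or more needle libraries, 5.88% were non-overlapping with sulfate higher and 6.92% with sulfate lower. The rule used this contrast, and nothing is read from the counts.

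The members' levels also varied between the needle libraries of each treatment. The SD over the 6 needle libraries, on the log2 scale, had a median of 0.23 among members and of 0.16 among the 27902 features in the same range of needle level. In 130 of 150 members it was above the median of those features. Measured against each member's own mean over the 6 libraries, the median deviation was 0.12, -0.02 and -0.21 in sulfate 1, 2 and 3. In control 1, 2 and 3 it was 0.12, -0.16 and 0.17. Sulfate 3 and control 2 were thus low, and the 2 lowest values of 76 members were found in exactly these 2 libraries. With both left out, the median SD of members was 0.19, against 0.14 in the other features, and 96 members were above that level. The median difference between sulfate and control was then -0.10, with 96 members below 0 and 54 above. Sulfate 3 and control 2 also had the highest scaling factors of the 6 needle libraries, 0.984 and 0.978. On plain CPM, without the inferred scaling, 125 members were above the median SD and 53 had their 2 lowest values in these libraries. The part of library composition in this was not tested.

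**Figure D3:**
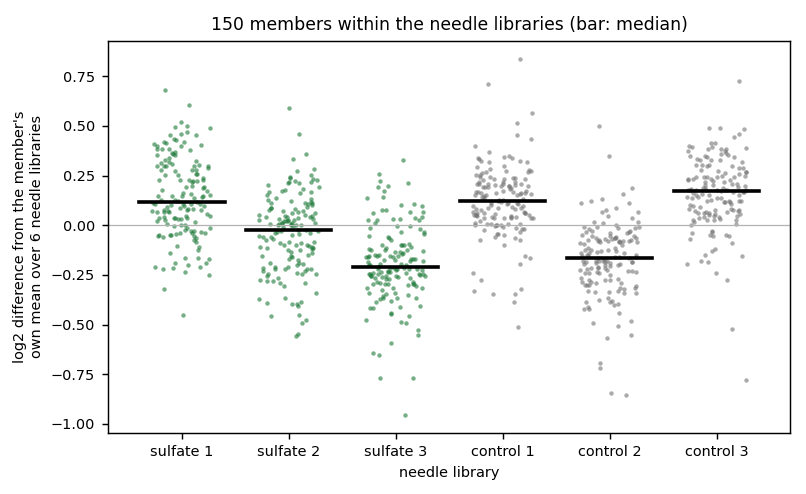
Deviation of each of the 150 members (points) from its own mean over the 6 needle libraries, in log2 units, by library, with a bar at the median and sulfate libraries left of control libraries. The bars of sulfate 3 and control 2 lie below 0, at -0.21 and -0.16, and those of sulfate 1, control 1 and control 3 lie above it.

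The widest spread over needle libraries was that of PpCO2_63415, with a log2 SD of 0.66. It measured 8.76, 8.85 and 4.59 normalized CPM with sulfate, against 14.98, 11.7 and 4.54 normalized CPM in controls. The lowest values of both treatments, sulfate 3 and control 3, were nearly equal. The narrowest spread was that of PpCO2_162239, with a log2 SD of 0.06. Its values were 7.93, 8.61 and 7.79 normalized CPM in sulfate libraries, against 7.90, 8.24 and 8.61 in control libraries. Over all members the highest needle value was 1.11 to 3.30 times the lowest, with a median of 1.54.

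Outside needles the members fell into a large group at trace level and a small group that was readily seen. In the sulfate libraries, 85 members had a mean under 0.1 normalized CPM in each of cotyledons, stem and roots. Another 43 had their highest such mean between 0.1 and 1, and 22 reached a mean of at least 1 in at least 1 of these organs. Cotyledons held 20 of the 22, stem 10 and roots 7. In the control libraries the same counts were 21 in cotyledons, 10 in stem and 7 in roots. As a share of the needle sulfate mean, the level in sulfate cotyledons had a median of 0.104% and a maximum of 6.36%. Stem had a median of 0.128% and a maximum of 5.44%, and roots had a median of 0.108% and a maximum of 4.39%.

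Stem sulfate 3 stood apart in these traces. It held reads for 120 of the 150 members, while the other 17 libraries of cotyledons, stem and roots held reads for 62 to 105. Summed over the 85 lowest members, its level was 0.185% of the needle sulfate mean, against 0.0162 to 0.0948% in those 17 libraries. Without it, stem was the highest other organ of 22 members rather than 57, roots of 57 rather than 39, and cotyledons of 55 rather than 51. Members with 0 reads in every stem sulfate library numbered 75 without it and 26 with it. The median stem share of the needle level became 0.00329%. The count of 22 members with a mean of at least 1 did not move. The source of these reads was not tested.

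The 3 members PpCO2_151949, PpCO2_1532 and PpCO2_40040 had 0 reads in all 9 sulfate libraries of cotyledons, stem and roots. They are named here for those counts, after their values were seen. Their needle means were 24.3, 15.4 and 11.5 normalized CPM with sulfate and 29.6, 17.9 and 13.7 in controls. Without stem sulfate 3 there were 16 such members. A count of 0 still allows a level of up to 3 reads per library. In cotyledons, the other leaf organ, 56 members had 0 reads in all 3 sulfate libraries and 47 had 0 reads in all 3 control libraries.

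**Figure D4:**
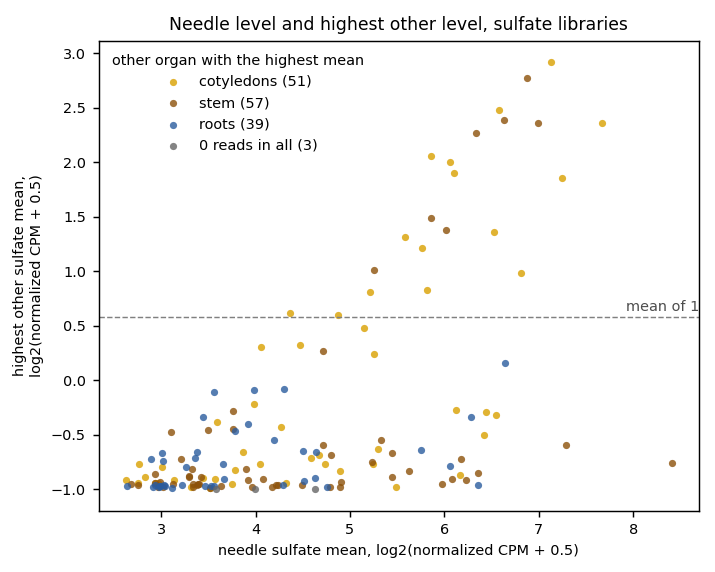
Highest sulfate mean among cotyledons, stem and roots (vertical axis) against the needle sulfate mean (horizontal axis) of the 150 members, both as log2(normalized CPM + 0.5), coloured by the organ of that highest mean. The 22 members above the dashed line, at a mean of 1, all have high needle levels, as the rule requires of a feature seen elsewhere, and cotyledons (15 members) and stem (7 members) are their highest other organs.

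The 22 members seen elsewhere were still far lower there than in needles. Their highest other sulfate mean was 1.33 to 6.36% of their needle sulfate mean, with a median of 4.03%. For 15 of them the highest other organ was cotyledons and for 7 it was stem. The largest share was that of PpCO2_70652, singled out after its values were seen, with needle values of 67.0, 56.5 and 48.7 normalized CPM in sulfate libraries, against 54.6, 48.7 and 57.4 in control libraries. Its cotyledon values were 4.15, 3.45 and 3.36 normalized CPM with sulfate, against 3.83, 3.61 and 3.02 in controls. The 2 treatments overlapped in both organs.

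Whether these low levels differed among cotyledons, stem and roots was tested in the 9 sulfate libraries, which the rule had not used. Of the 66249 features that reached 1 normalized CPM in 3 or more of the 9 libraries, 17 were members. Of these, 8 passed that filter through 1 organ alone, so a difference from the other organs was built into their entry, and the counts are a description. With limma and a Benjamini-Hochberg adjusted p under 0.05, 9 members were higher in cotyledons than in stem and 6 were lower, beside 34.2% higher and 35.0% lower over all features tested. Between cotyledons and roots 10 members were higher and 2 were lower, beside 37.9% and 39.6%. Between stem and roots 5 members were higher and 0 lower, beside 32.9% and 27.3%. With unadjusted p under 0.05 the last pair of counts was 5 and 0, with no share over all features given. With edgeR on recovered reads it was 6 and 0, beside 19537 and 18984 of 66249 features. With the replicate number as a block, the first comparison called 8 higher and 5 lower, beside 23048 and 23743 of 66249 features. The other 2 comparisons kept their counts, beside 25488 and 26725 features for cotyledons against roots and 22500 and 18603 for stem against roots.

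These counts moved with single libraries, in part because the filter needs 3 libraries at 1 normalized CPM. Without cotyledon sulfate 1, 2 or 3, members that had passed through cotyledons alone could not be tested, which left 10. Of these, 1, 2 and 2 were higher in cotyledons than in stem. Cotyledons were then higher than roots in 5, 3 and 3 members. Without stem sulfate 2 or 3, 3 and 2 members were lower in cotyledons than in stem, of 16 tested. Without stem sulfate 1, 2 or 3, 1 member was lower in cotyledons than in roots. Without cotyledon sulfate 2, 8 members were higher in stem than in roots. The share called over all features is not given for these counts without a library, so nothing is read from them.

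The clearest cotyledon side was that of PpCO2_160798. It measured 5.79, 9.86 and 5.56 normalized CPM in cotyledons, against 0.0196, 0 and 0.129 normalized CPM in stem. Its root values were 0, 0.0537 and 0.0160 normalized CPM, and the cotyledon values stood clear of both. The log2 difference was 3.75 ± 0.20 from stem and 3.81 ± 0.20 from roots (SE). PpCO2_160803, with a neighbouring number, measured 4.24, 7.23 and 3.77 normalized CPM in cotyledons, against 0.0293, 0.0190 and 0.129 in stem. Its differences were 3.27 ± 0.21 from stem and 3.33 ± 0.21 from roots. Both features passed the filter through cotyledons alone, so these differences were built into their entry and are given without a p. In needles these 2 features averaged 139 and 94.9 normalized CPM with sulfate.

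PpCO2_136771 and PpCO2_136766 had the opposite order, with stem above roots and roots above cotyledons. PpCO2_136771 measured 0.0935, 0.206 and 0.129 normalized CPM in cotyledons, against 4.08, 4.19 and 4.74 in stem. In roots it measured 1.11, 1.21 and 1.24 normalized CPM, so the 3 organs did not overlap. It passed the filter through stem and roots, so its low cotyledon level is a description, a log2 difference of -2.91 ± 0.12 from stem and -1.39 ± 0.12 from roots. Stem was above roots by 1.52 ± 0.12 (limma adjusted p = 2.71e-06). PpCO2_136766 measured 0.0208, 0.0868 and 0.161 normalized CPM in cotyledons and 2.10, 2.18 and 2.63 normalized CPM in stem. It passed the filter through stem alone, so its log2 difference of -2.25 ± 0.16 between cotyledons and stem is a description. Its root values were 0.472, 0.841 and 0.784 normalized CPM, and the log2 difference of cotyledons from roots was -1.02 ± 0.16. Neither organ reached the filter level in any sulfate library, so that difference is also given as a description, without a p. For both features cotyledons, a leaf organ like needles, were the lowest of the 4 organs.

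PpCO2_136775, near them in number, measured 5.68, 5.95 and 7.38 normalized CPM in stem, against 1.59, 1.83 and 2.42 normalized CPM in roots. The stem values were all above the root values, a log2 difference of 1.49 ± 0.34 (limma adjusted p = 0.00435). In cotyledons it was spread out, at 1.25, 4.44 and 3.33 normalized CPM with sulfate, against 6.24, 1.14 and 2.81 in controls. The difference between stem and roots passed the threshold in each of the 16 alternatives that could test it for PpCO2_136771, and in each of 17 for PpCO2_136775. Sizes depended on the scale where a level was near 0. The difference of PpCO2_160798 between cotyledons and stem ran from 2.11 with a larger pseudocount to 7.09 in edgeR.

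**Figure D5:**
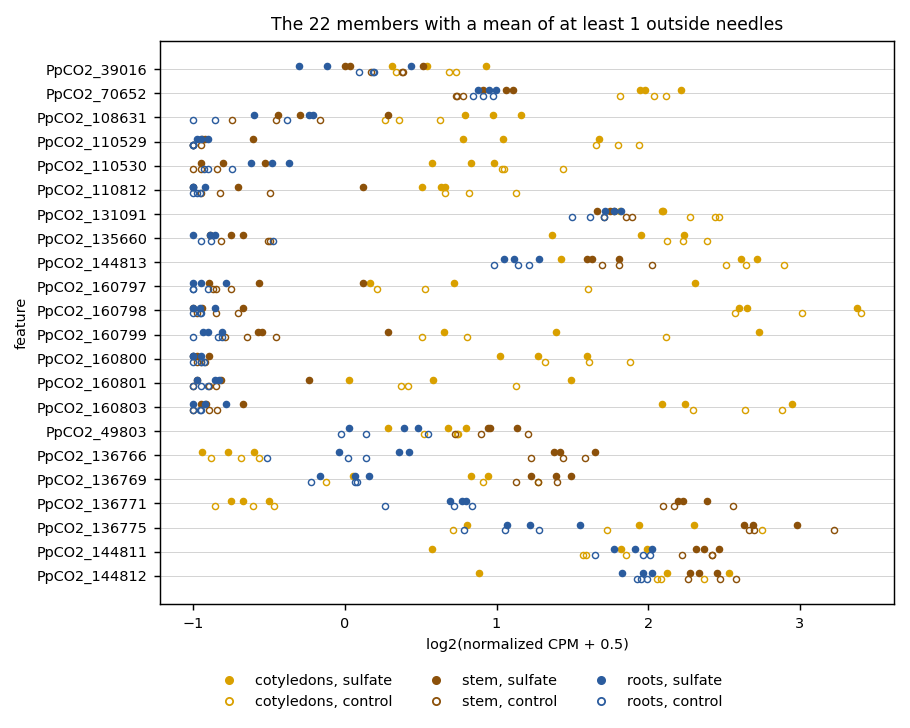
Every cotyledon, stem and root library of the 22 members with a sulfate mean of at least 1 outside needles, as log2(normalized CPM + 0.5) on the horizontal axis, with sulfate libraries as filled points above control libraries as open points in each row. The 15 upper rows reach their highest mean in cotyledons and the 7 lower rows in stem, and filled and open points of the same organ overlap in most rows.

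Most members were too low in the other organs to be tested there for sulfate against control, and none of those tested was called. Calls were rare over all features, so 0 calls among so few members is not read as stability. Without the filter 1 member, PpCO2_14799, was called in roots, as described under the other observations. The control side of these tests had a part in the choice, so they are not independent of the rule. In cotyledons 20 members passed the filter and limma called 0 of them, beside 0.0164% higher and 0.286% lower over the 54944 features tested. Their log2 differences ran from -0.63 to 0.56, with a median of -0.19 against -0.01 over all features, and 15 of 20 were below 0. At an unadjusted p under 0.05 there were 3 members with limma and 2 with edgeR. The adjusted p of edgeR called 0, beside 3 higher and 113 lower of 54944 features. In stem 10 members were tested and 0 called, beside 0.132% higher and 0.525% lower over 58468 features. There 1 member had an unadjusted p under 0.05 with limma and 1 with edgeR. The adjusted p of edgeR called 0, beside 82 higher and 309 lower of 58468 features. In roots 7 members were tested and 0 called, beside 0.487% higher and 1.38% lower over 60398 features. None of the 7 had an unadjusted p under 0.05 with limma or with edgeR. Shares over all features are not given at an unadjusted p, so nothing is read from those counts.

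The 3 cotyledon members with a low unadjusted p in limma were PpCO2_131091, PpCO2_108631 and PpCO2_110529, picked out after their values were seen. PpCO2_131091 measured 3.76, 3.79 and 3.02 normalized CPM in sulfate cotyledons, against 5.03, 4.93 and 4.35 in control cotyledons. The groups did not overlap, and the log2 difference was -0.39 ± 0.12 (limma adjusted p = 0.490). PpCO2_108631 measured 1.46, 1.74 and 1.23 normalized CPM with sulfate, against 1.05, 0.784 and 0.701 in controls. Here sulfate was the higher group without overlap, by 0.56 ± 0.18 (limma adjusted p = 0.499). PpCO2_110529 measured 2.70, 1.22 and 1.56 normalized CPM with sulfate, against 3.34, 2.99 and 2.65 in controls. Sulfate 1 reached into the control range, and the difference was -0.63 ± 0.24 (limma adjusted p = 0.558).

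The member with a low unadjusted p in stem was PpCO2_70652, at 1.38, 1.66 and 1.59 normalized CPM in sulfate stems and 1.16, 1.17 and 1.21 normalized CPM in control stems. The groups did not overlap, and the log2 difference was 0.28 ± 0.12 (limma adjusted p = 0.430). Whether the sulfate effect differed among cotyledons, stem and roots was tested for the 6 members that passed the filter in each of these organs. This test too used control values that had a part in the choice. The limma F test called 0 of the 6, beside 0.150% over the 47850 features tested, and edgeR called 0. At an unadjusted p under 0.05, for which no share over all features is given, there was 1 member with each tool. In limma this was PpCO2_131091 (limma adjusted p = 0.313), which was lower with sulfate in cotyledons, as above. In roots it measured 2.79, 2.92 and 3.03 normalized CPM with sulfate, against 2.76, 2.57 and 2.33 in controls, so the sulfate values were the higher ones there.

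The rule used no identifier, and the members were also described by how close their numbers lay. Features were joined into a run where their numbers were at most 2 apart and their levels correlated with r over 0.8 across the 24 libraries. By that definition 110 of 150 members (73.3%) shared a run with another member, in 34 runs, and 40 members were alone. The 150 members thus came from 74 runs. Counting any listed feature as a partner, 84.7% of members and 66.8% of all features were in a run of 2 or more, with no test of that difference. The rule made every member high in needles and low elsewhere, which favours a correlation over the 24 libraries between neighbours. The 73.3% and 84.7% of members are thus in part built in. A listed feature at most 2 numbers away was found for 92.7% of members and for 94.3% of all features, so close numbering is common in the table. Transcript variants or close copies could share reads in the authors' counting, and members of a run are not independent of each other. Across the 6 needle libraries the correlation between members of the same run had a median r of 0.93 over 158 pairs, and that between members of different runs had a median of 0.48 over 11017 pairs, where all pairs share the same libraries. The runs were joined by correlation over 24 libraries that include these 6, so a high r within runs is in part built in.

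The longest run went from PpCO2_1530 to PpCO2_1537 and held 7 members among its 8 listed features. PpCO2_1530 and PpCO2_1537 averaged 7.15 ± 0.483 and 7.04 ± 1.46 normalized CPM in sulfate needles. In control needles they averaged 8.19 ± 1.67 and 8.04 ± 2.18 normalized CPM, and the run's highest member was PpCO2_1536. The run from PpCO2_108356 to PpCO2_108363 held 6 members among 7 features, with PpCO2_108358 the highest and PpCO2_108363 at 18.3 ± 3.49 normalized CPM in sulfate needles and 22.2 ± 5.63 in control needles. Members of both runs were at traces in the other organs, with sulfate means of at most 0.146 normalized CPM. A further run held 6 members, from PpCO2_160797 to PpCO2_160803, among 8 features up to PpCO2_160804, and it differed from these in that every one of its members reached a mean of at least 1 in sulfate cotyledons.

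Within that run the cotyledon libraries ranked in different orders. PpCO2_160799, its highest member in needles, measured 1.07, 2.13 and 6.14 normalized CPM in sulfate cotyledons, against 1.25, 3.84 and 0.923 in control cotyledons. PpCO2_160797 was at 0.623, 1.15 and 4.44 normalized CPM with sulfate, against 0.944, 2.54 and 0.656 in controls. In both, sulfate 3 and control 2 were the high libraries. PpCO2_160803 ran otherwise, at 4.24, 7.23 and 3.77 normalized CPM with sulfate, against 6.86, 4.41 and 5.73 in controls. Its sulfate 3 was the lowest of the 6 libraries and its sulfate 2 the highest. In needles all 3 features, and PpCO2_160798 of the same run, ranked alike in that sulfate 1 was the highest of the 6 libraries, with 187 normalized CPM for PpCO2_160799, 110 for PpCO2_160797, 107 for PpCO2_160803 and 165 for PpCO2_160798.

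Not every feature of a run met the rule. The 74 runs held 210 listed features in all, of which 60 were no members. Their needle leads ran from 0.45 to 3.72 with a median of 2.74, and 1 of the 60 ranked high enough but lay past the bound. In the run from PpCO2_70650 to PpCO2_70656, which held 6 members among 7 features, the feature outside was PpCO2_70653. It was singled out after its values were seen, and it had needle means of 82.0 normalized CPM with sulfate and 69.5 in controls. Its cotyledon means were 12.3 normalized CPM with sulfate and 10.6 in controls, above those of PpCO2_70652, at 3.65 and 3.49, and of PpCO2_70650, at 0.303 and 0.267. Features of the same run thus differed by more than an order of magnitude in cotyledons.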

How the data were processed

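RNA from 24 libraries was sequenced as paired reads of 150 bp, with poly(A) RNA enriched on oligo(dT) beads, per the labels' protocols. Strand-specific preparation is not described, so sense and antisense transcripts of a locus cannot be separated. Of software, bcl2fastq and BWA are named in the submitters' processing notes, with no version. The way reads were counted, the reference, and any scaling or filter are steps not given in the sources used here. As deposited, the values are treated as a signal. A column does not sum to what plain CPM gives, so they are taken as CPM on scaled library sizes. Every value was a whole multiple of its library's step within 0.01 of a step (100% of values), so reads could be recovered. For needle control 2 this was not relied on, since its step lies close to 0.01 and rounding could give such steps, and its reads enter no test. The scaled values need the same tests as plain CPM, which had been planned for. Even numbers made up 57.9 to 69.9% of counts from 1 to 20, so a pair may have been counted by each mate, and floors in reads cover counting error only. In 22 pairs of libraries from the same group the chi-square per feature was 10.95 to 68.1 on recovered reads, more than sampling noise gives, and each library was kept as its own replicate. The p-values rest on the spread between pools, 3 a group.

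Features that reached 1 normalized CPM in 3 or more libraries of a fit were tested with limma 3.58.1 (lmFit, eBayes with trend and robust options) in R 4.3.3 on log2(value + 0.5), which understates changes of low features. Each organ had its own fit of sulfate against control, organs were compared in 1 fit of 9 sulfate libraries, and the difference of the sulfate effect was an F test in 18 libraries. Adjusted p-values are Benjamini-Hochberg over all features tested, with a threshold of 0.05. The fits were tested on simulated data. Alternatives were edgeR 4.0.16 (quasi-likelihood, recovered reads), other pseudocounts, filters and scalings, the replicate block and leaving out each library. Figures used matplotlib 3.10.9 in Python 3.11.15.

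Same-numbered sulfate and control cotyledon libraries deviated together, with correlations of 0.198, 0.333 and 0.232. Sulfate libraries of cotyledons, stem and roots with the same number also did, at 0.131 to 0.379, so there the numbers were taken to pair the libraries. This pairing comes from the data, as the labels only number the replicates. The main tests did not use it, and the replicate block was run as an alternative. Sulfate and control libraries of stem and roots were not paired in this way.

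The members and lists were chosen with earlier results of these data known. Named features are the 10 largest leads, the 5 highest needle sulfate means, those beside the thresholds, for each test the 2 largest called differences in each direction, the first, last and highest member of the 3 longest runs, and the widest and narrowest needle spread. Other features are said to be picked after their values were seen. Planned gene lists and marker checks were not used, since names are not paired with identifiers.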

Additional observations from a re-analysis of the deposited data

How the results depend on the processing

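Without a filter on low values, all 150 members were tested. Of these, 24 were higher and 16 lower in cotyledons than in stem. Between cotyledons and roots 23 were higher and 12 lower, and between stem and roots 9 and 6. In roots 1 member was then called for sulfate against control, by limma and also by edgeR, and 0 to 1 when each library was left out too. With a minimum of 5, which left 2 members to test, the counts were 1 and 1, 1 and 0, and 1 higher for stem against roots. Leaving out each library gave 1 to 8 members higher and 2 to 6 lower in cotyledons than in stem, 3 to 10 and 1 to 2 in cotyledons than in roots, and 4 to 8 higher in stem than in roots. Of the 17 members tested in all libraries, 10 were tested without a cotyledon library, 16 without a stem library and 17 without a root library. The share called over all features is not given for these organ counts, so nothing is read from them. Keeping 1 feature per run left 74 of the 150 members. Changing the rule otherwise kept 119 to 150 of them, and 122 with a pseudocount of 0.1.

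With the replicate number as a block, sulfate against control still called 0 members in cotyledons, stem and roots, and cotyledons against stem called 8 higher and 5 lower. It moved no count by more than 1.5 times. In roots the same-number correlations were 0.0550, 0.0745 and -0.0412, and in stem 0.0820, -0.221 and 0.270.

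The limits lie in depth and annotation. A level of 3 reads is the floor for the many members near 0 outside needles, single features within a run may share reads, and 3 pools a group leave small sulfate effects undetectable. The edgeR fit without a filter, the needle spread without sulfate 3 and control 2 and on plain CPM, the counts without stem sulfate 3, and leaving out libraries without a filter were chosen after seeing the data.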

Other observations

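PpCO2_14799 was the 1 member called for sulfate in roots when no filter on low values was applied, and it was singled out after its values were seen. Its root levels lay below the filter, at 0.436, 0.456 and 0.392 normalized CPM with sulfate, from 49, 51 and 49 reads. In control roots they were 0.0695, 0.0958 and 0.144 normalized CPM, from 8, 11 and 17 reads. The groups did not overlap, and the sulfate mean was 4.16 times the control mean. The log2 difference was 0.62 ± 0.09 (limma adjusted p = 0.0169), beside 0.385% of the 67271 features called higher in that fit. The root control values had a part in the choice, which favoured low ones. The p-values of this feature are therefore a description. With edgeR on recovered reads the adjusted p was 0.0438. Leaving out each root library in turn gave a limma adjusted p of 0.0316 to 0.0715, past the threshold in 3 of 6 cases: without sulfate 3, control 1 or control 3. In needles, where the rule limits the difference, it measured 10.96, 15.06 and 7.93 normalized CPM with sulfate and 7.42, 8.62 and 10.7 normalized CPM in controls.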
